A study of Mus musculus with 65 samples.

Results

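The oligodendrocyte lineage and myelin genes examined here were Gsn, Car2, Pmp22, Gpr37, Josd2, Cryab, Bcas1, Sox6 and Vcan, and every feature annotated with one of these symbols was taken. Of the 8448 cDNA features on the array filter used here, 9 carried 1 of these symbols alone, 1 feature for each gene. A further feature was annotated with both Gsn and Mthfd2 and is given apart under both names. No feature was removed for a low value. Expression was measured in the spinal cord of 65 C57BL/6 mice from a single breeding colony, housed individually, with 1 radioactively hybridized nylon filter for each mouse. The groups were 10 juveniles of 17 to 44 days fed ad libitum (AL), and mice of 6, 16 and 24 months on caloric restriction (CR) or AL. There were 8 CR and 10 AL mice of 6 months (169 to 194 days), 10 CR and 10 AL mice of 16 months (472 to 499 days), and 7 CR and 10 AL mice of 24 months (673 to 743 days), with both sexes in each group (31 males and 34 females in all). At 24 months all 3 CR males were 673 days old, and the AL males were 714 to 743 days old. Diet and age thus cannot be told apart in these males. The CR females of 24 months were 703 to 743 days old, and the AL females 704 to 733. By the labels, CR mice had full regular feed to 13 weeks of age, fortified feed at 90% and then 75% of the ration for 1 week each, and 60% from there on.

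Oligodendrocytes wrap axons of the central nervous system in myelin, a stack of lipid-rich membrane that speeds conduction, and they arise from progenitor cells that divide, stop dividing, pass through a premyelinating stage and then extend sheaths. In the rodent spinal cord most myelin is laid down in the first weeks after birth, and progenitors go on producing some oligodendrocytes in the adult. Schwann cells make the myelin of the nerve roots, which can stay attached to dissected cord. The best known genes of central myelin, such as Mbp, Mag and Mog, had no named feature and were not analysed here. The 9 genes therefore stand for several stages of the lineage rather than for the sheath itself, and because whole cord was used, fewer oligodendrocytes and less RNA per oligodendrocyte cannot be told apart.

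Values are Z scores, in which 0 stands for the mean of all features on a mouse's own filter and 1 for their standard deviation, and differences are in the same units. A level cannot be set against that of another feature, because the amount of spotted DNA differs between clones. The arrays fell into a larger set of 41 and a smaller set of 21 that the labels do not name, and 3 arrays, numbers 31 to 33, stood apart from both. All 3 came from mice of 6 months, 1 AL male and 2 CR mice, 1 of each sex. The smaller set held 4 of 10 juveniles, 0 of 8 CR and 1 of 10 AL mice of 6 months, 3 of 10 CR and 4 of 10 AL mice of 16 months, and 3 of 7 CR and 6 of 10 AL mice of 24 months. Values with the set as a covariate and without arrays 31 to 33, called set-adjusted here, are therefore given beside the results.

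Promoter sequence was found in the RefSeq table (build GRCm38.p6) for 6 of the 9 genes, namely Gsn, Gpr37, Josd2, Sox6, Pmp22 and Vcan, with 16 start sites in all. The 250 bases before the first start of Gsn and before the start of Gpr37 are shown because these genes had the highest correlation across mice among the members with an entry (r = 0.511). Gsn lies on chromosome 2 (35256359 to 35307902) and Gpr37 on chromosome 6 (25668523 to 25689980). Capitals mark the Sp1 box GGGCGG or its complement CCGCCC.
Gsn, chr2:35256109-35256358, plus strand: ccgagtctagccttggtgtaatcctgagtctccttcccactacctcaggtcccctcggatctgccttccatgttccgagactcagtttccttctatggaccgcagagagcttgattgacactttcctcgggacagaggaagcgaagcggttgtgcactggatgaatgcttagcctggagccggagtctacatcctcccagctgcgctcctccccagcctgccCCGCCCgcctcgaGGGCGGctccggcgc
Gpr37, chr6:25689981-25690230, minus strand: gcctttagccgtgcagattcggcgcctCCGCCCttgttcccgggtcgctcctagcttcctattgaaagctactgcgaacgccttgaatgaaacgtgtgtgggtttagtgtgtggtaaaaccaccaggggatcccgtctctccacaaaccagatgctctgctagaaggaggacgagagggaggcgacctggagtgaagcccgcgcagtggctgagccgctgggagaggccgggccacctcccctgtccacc
The box occurred at 2 places in the Gsn window and at 1 place in the Gpr37 window, and both windows had a GC content of 60.8%, against a median of 52.4% over all 32851 windows of the table. It was present on either strand in 32.7% of all windows. Neither window held TATAAA (12.4% of all windows) or ACAAT, the core recognized by SOX proteins (27.7%), on either strand. These matches describe the letters of the windows, and binding was not measured.

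Across 16 comparisons of age, diet and sex, 0 of the 144 differences of the 9 genes had an adjusted p under 0.05 in limma (Benjamini-Hochberg, all 8448 features adjusted together). An unadjusted p under 0.05 was reached by 8 of them (5.56%), against 5.59% of the differences of all features. The smallest adjusted p was 0.343, for Gsn between 6 months and the juvenile stage, followed by 0.344, for Car2 between 16 and 6 months in AL mice. Group means of 1 gene over the 7 combinations of stage and diet spanned 0.362 for Gsn, 0.34 for Pmp22, 0.319 for Car2, 0.3 for Sox6, 0.253 for Bcas1, 0.2 for Gpr37, 0.131 for Cryab, 0.103 for Vcan and 0.046 for Josd2. For Gsn, Car2, Bcas1, Pmp22 and Sox6, an end of the span was a mean at 6 months that held arrays 31 to 33. Without them, CR mice of 6 months averaged 0.257 for Gsn, -0.142 for Car2, 0.275 for Bcas1, -1.27 for Pmp22 and -1.89 for Sox6. The residual standard deviation of the median feature was 0.149. Over all 65 mice the SD of the 9 genes ran from 0.0879 for Cryab to 0.313 for Car2.

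**Figure D1:**
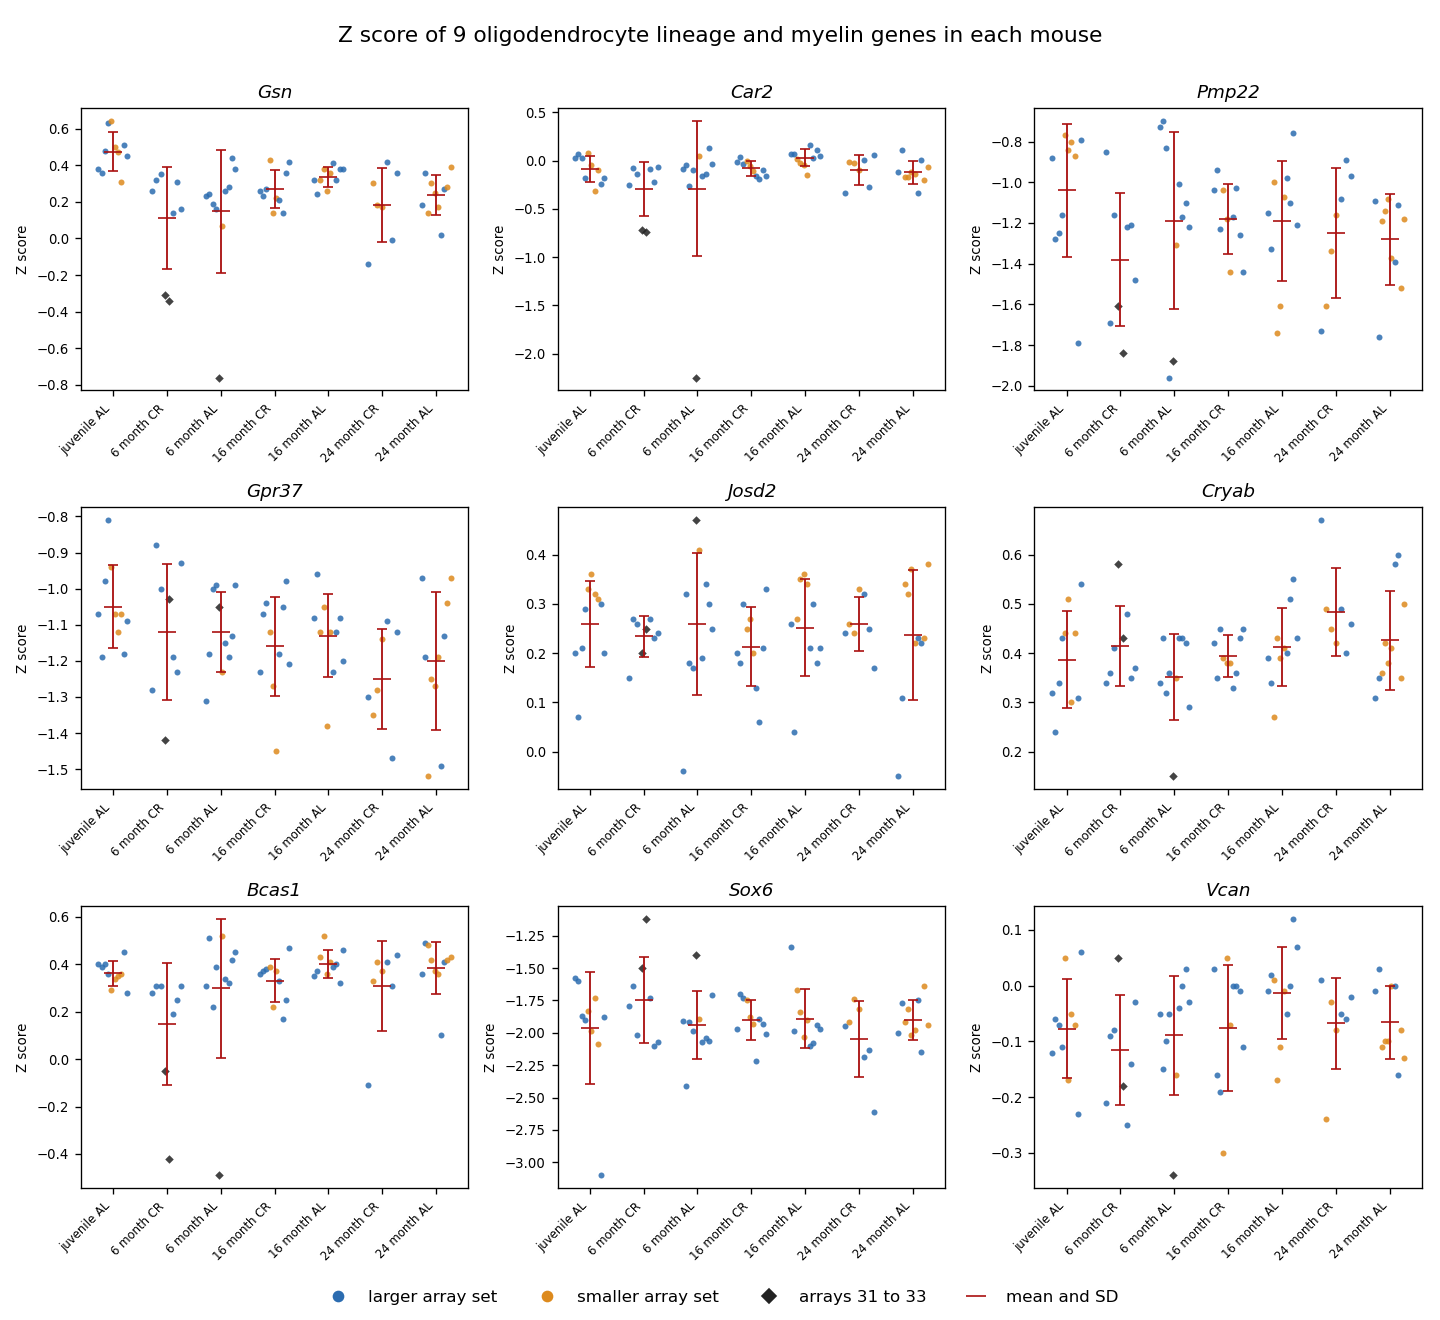
Z score (y axis) of each of the 9 genes in each mouse, by stage and diet (x axis), with points coloured by array set, diamonds for arrays 31 to 33, and a line and bar for the mean and SD of all mice. Groups overlap for every gene, and the diamonds of Gsn, Car2 and Bcas1 at 6 months lie below all or nearly all other mice.

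Gelsolin (Gsn), a protein that severs and caps actin filaments and is abundant in oligodendrocytes, had its highest mean in juveniles. The lowest, median and highest Z scores were 0.31, 0.475 and 0.64 in juveniles, -0.34, 0.21 and 0.35 in CR and -0.76, 0.235 and 0.44 in AL mice of 6 months, 0.14, 0.245 and 0.43 in CR and 0.24, 0.34 and 0.41 in AL mice of 16 months, and -0.14, 0.18 and 0.42 in CR and 0.02, 0.26 and 0.39 in AL mice of 24 months. The highest of the 55 adult values was 0.44, and 7 of the 10 juveniles were above it, a description chosen after the values were seen. All 10 AL mice of 6 months were below the juvenile mean, and 8 of them were below the lowest juvenile, but the groups overlapped.

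Gsn averaged 0.149 ± 0.336 in AL mice of 6 months and 0.473 ± 0.107 in juveniles (SD, n = 10 each). The difference was -0.324 (SE 0.0879, 95% interval -0.5 to -0.148) and did not pass the test in limma (adjusted p = 0.343), in a comparison where 0.13% of all features were called. Much of the spread at 6 months came from array 33, with a Z score of -0.76, and without it the AL mice of 6 months averaged 0.25 ± 0.111 (n = 9). The set-adjusted difference was -0.219 (SE 0.0547, adjusted p = 0.0762 in limma). Within the larger set it was -0.196 (8 mice of 6 months, 6 juveniles), and within the smaller set, with 1 mouse of 6 months and 4 juveniles, it was -0.41.

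Median levels differed between the 22 places of a repeating cycle in the feature number, called filter positions here. In juveniles the mean of these medians was 0.512 at the position of Gsn, and over the positions of the 9 genes it lay between -1.53 and 0.686. When the median of its position was taken from each Gsn value, the score was -0.343 ± 0.143 in AL mice of 6 months (-0.67 to -0.155) and -0.039 ± 0.123 in juveniles (-0.2 to 0.14). The SD of the mice of 6 months was then close to that of the juveniles, and the 2 ranges still overlapped. With position medians removed, Gsn passed the test in limma (difference -0.304, SE 0.051, adjusted p = 0.000317). It also did so with the set as a covariate as well and without arrays 31 to 33 (-0.251, SE 0.0468, adjusted p = 0.00241 in limma). With the scores as deposited and arrays weighted by their noise it passed too (-0.199, SE 0.0475, adjusted p = 0.0376 in limma), but the array weights did not converge. The array numbers ran through the groups in 5 rounds, and with the round as a block Gsn differed by -0.324 (SE 0.0792, adjusted p = 0.0862 in limma) over all arrays and by -0.223 (SE 0.0493, adjusted p = 0.0204), which passed, without arrays 31 to 33. The direction was negative in every one of these fits, and whether Gsn passed turned on the treatment of array noise, array round and filter position. Removing position medians together with the set covariate, and the round as a block, were added after seeing the data.

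**Figure D2:**
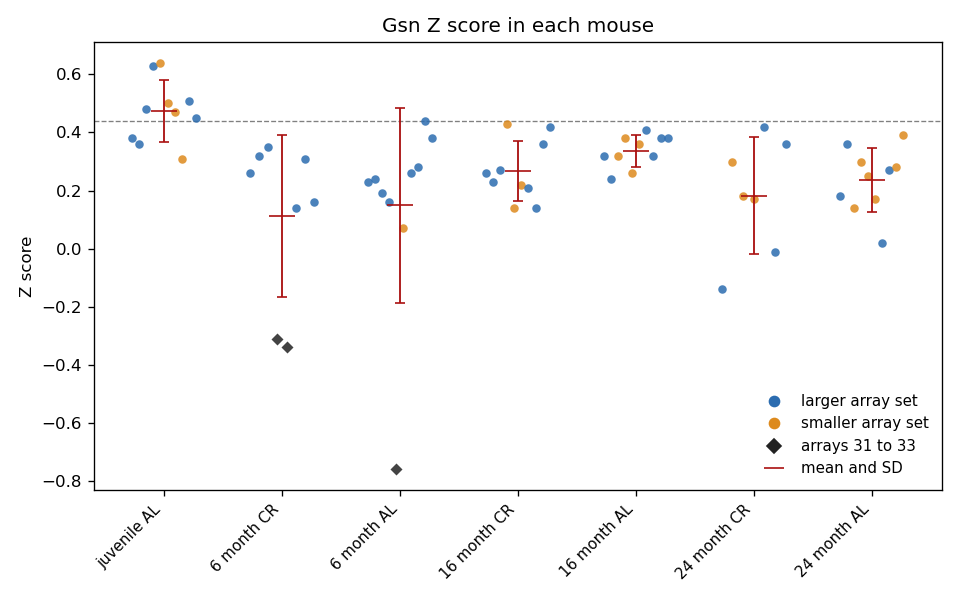
Z score of Gsn (y axis) in each mouse by stage and diet (x axis), with the mean and SD of all mice in red and the array set in colour. The dashed line is the highest adult value, 0.44, and 7 of 10 juveniles lie above it, from both array sets.

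**Figure D3:**
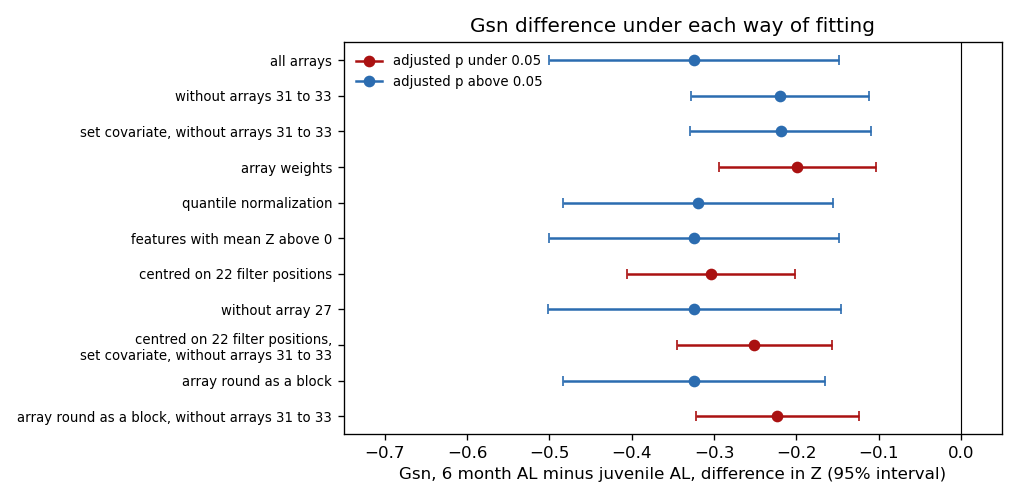
Difference of Gsn between AL mice of 6 months and juveniles (x axis, Z units, points with 95% intervals) under each way of fitting (y axis). All intervals lie below 0, between -0.502 and -0.103, and the adjusted p is under 0.05 in 4 of the 11 fits.

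Within the juveniles, Gsn averaged 0.426 ± 0.0808 in the 5 older mice and 0.52 ± 0.117 in the 5 younger mice (divided at 25 days), and this difference did not pass the test. No later step with age passed either. Gsn averaged 0.337 ± 0.0554 at 16 months and 0.149 ± 0.336 at 6 months in AL mice, a difference of 0.188 (SE 0.0879, adjusted p = 0.361 in limma) that was 0.0832 when set-adjusted. The comparisons with juveniles and with 16 months share the mice of 6 months. The feature annotated with both Gsn and Mthfd2 went the other way, with means of 0.318 ± 0.149 in AL mice of 6 months and 0.226 ± 0.0746 in juveniles (difference 0.092, SE 0.0466, adjusted p = 0.986 in limma). Array 33 had a Z score of 0.72 on it, and without that array the mice of 6 months averaged 0.273 ± 0.051 (n = 9). The set-adjusted difference was 0.0494 (SE 0.0422). Its correlation with the Gsn feature over 62 arrays was -0.299. Gsn is also made by fibroblasts of the meninges, so the 16 features of the 11 measured genes of an 18-gene meninges and fibroblast list were averaged in each mouse. Their mean Z score ranged from 0.105 to 0.537 (median 0.5) in AL mice of 6 months and from 0.397 to 0.536 (median 0.459) in juveniles, and their part in the Gsn difference was not tested.

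Carbonic anhydrase 2 (Car2), which hydrates CO2 and is a classic marker of oligodendrocytes, had medians between -0.18 and 0.04 in all 7 groups. In AL mice its lowest, median and highest Z scores were -0.31, -0.075 and 0.08 in juveniles, -2.25, -0.095 and 0.13 at 6 months, -0.15, 0.04 and 0.16 at 16 months, and -0.34, -0.13 and 0.11 at 24 months. A single mouse, on array 33, thus lay far below all others at 6 months, while the other 9 ran with the rest. The means were 0.03 ± 0.0862 at 16 months and -0.289 ± 0.698 at 6 months, with a difference of 0.319 (SE 0.135, adjusted p = 0.344 in limma) in a comparison where 0.0237% of all features were called. The set-adjusted difference was 0.108 (SE 0.0539, adjusted p = 0.751). Between 24 and 6 months in AL mice, where 0.071% of all features were called, Car2 differed by 0.168 (95% interval -0.102 to 0.438) and by -0.0401 when set-adjusted. The sign of this difference thus turned when array 33 was left out and the array set was fitted. Between 24 and 16 months in AL mice, where 0.0% of all features were called, the mean of Car2 was -0.121 ± 0.121 in the older mice and 0.03 ± 0.0862 in those of 16 months, and 9 of 10 mice of 24 months were below the mean of 16 months. The difference was -0.151 (SE 0.135, adjusted p = 0.959 in limma), -0.148 (SE 0.0518, adjusted p = 0.639) when set-adjusted, -0.167 within the larger and -0.0975 within the smaller set. It did not pass the test.

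Pmp22, a membrane protein of compact peripheral myelin made mainly by Schwann cells, had a wide spread in every group. Its lowest, median and highest Z scores were -1.79, -0.875 and -0.77 in juveniles, -1.84, -1.35 and -0.85 in CR and -1.96, -1.135 and -0.7 in AL mice of 6 months, and -1.73, -1.16 and -0.89 in CR and -1.76, -1.185 and -1.08 in AL mice of 24 months. Of the juveniles, 7 were above the adult median of -1.18 and 3 were below it. The mean was -1.19 ± 0.435 at 6 months in AL mice and -1.04 ± 0.328 in juveniles, a difference of -0.148 (95% interval -0.422 to 0.126), and the set-adjusted difference was -0.0557. With standard errors of 0.137 in comparisons of 10 AL mice with 10, Pmp22 was the least precisely measured of the 9 genes. Pmp22 was the only gene of a 14-gene Schwann cell list with a named feature, so the share of nerve root in each sample could not be followed from other markers.

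Gpr37, an orphan receptor of maturing oligodendrocytes that restrains their differentiation in mice, had its highest mean in juveniles and its lowest at 24 months. The means were -1.05 ± 0.115 in juveniles, -1.12 ± 0.189 in CR and -1.12 ± 0.111 in AL mice of 6 months, -1.16 ± 0.138 in CR and -1.13 ± 0.114 in AL mice of 16 months, and -1.25 ± 0.139 in CR and -1.2 ± 0.192 in AL mice of 24 months. Neighbouring means in this order differed by less than the larger of their SDs. None of the steps passed, and the difference between 24 and 6 months was -0.118 (95% interval -0.276 to 0.0397) in CR mice, where 0.0237% of all features were called, and -0.08 (-0.214 to 0.0537) in AL mice.

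Josd2, a deubiquitinating enzyme of the Josephin family whose transcript is enriched in oligodendrocytes, was the flattest of the 9 genes. All 7 group means lay between 0.213 and 0.259. The AL mice of 6 months and the juveniles both averaged 0.259 (SD 0.144 and 0.0877, n = 10 each), and the 95% interval of the difference was -0.0964 to 0.0964. Over the 3 adult ages the difference between CR and AL was -0.0136 (-0.0728 to 0.0456), and 0.0131 (SE 0.0251) when set-adjusted.

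Cryab, a small heat-shock chaperone made by oligodendrocytes and astrocytes, had its highest mean in CR mice of 24 months. In CR mice its lowest, median and highest Z scores were 0.34, 0.39 and 0.58 at 6 months, 0.33, 0.385 and 0.45 at 16 months, and 0.4, 0.46 and 0.67 at 24 months. In AL mice they were 0.15, 0.355 and 0.43 at 6 months, 0.27, 0.405 and 0.55 at 16 months, and 0.31, 0.395 and 0.6 at 24 months. All 7 CR mice of 24 months lay above the CR mean of 16 months, although the groups overlapped. The mean was 0.483 ± 0.089 (n = 7) at 24 months and 0.394 ± 0.042 (n = 10) at 16 months in CR mice, with a fitted difference of 0.0973 (SE 0.0435, adjusted p = 0.821 in limma) where 0.0% of all features were called. The set-adjusted difference was 0.0997 (SE 0.039, adjusted p = 0.209), and the values within the larger and the smaller set were 0.106 and 0.07. The value of 0.67 came from 1 male. Leaving out 1 mouse at a time, the difference without set adjustment ranged from 0.0673 to 0.112. At 24 and 16 months, CR males averaged 0.55 (n = 3) and 0.402 (n = 5), and CR females 0.432 (n = 4) and 0.386 (n = 5). Between 24 and 6 months Cryab differed by 0.0733 (95% interval -0.0197 to 0.166) in CR and by 0.074 (-0.00464 to 0.153) in AL mice. The set-adjusted values were 0.122 (SE 0.0463, adjusted p = 0.194 in limma) in CR and 0.0617 (SE 0.038) in AL mice. None of these passed the test.

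Bcas1, which marks newly formed oligodendrocytes that are starting to myelinate, was lower on average in CR than in AL mice at each adult age. Its lowest, median and highest Z scores were -0.42, 0.265 and 0.31 in CR and -0.49, 0.365 and 0.52 in AL mice of 6 months, 0.17, 0.365 and 0.47 in CR and 0.32, 0.395 and 0.52 in AL mice of 16 months, and -0.11, 0.37 and 0.44 in CR and 0.1, 0.415 and 0.49 in AL mice of 24 months. The low ends at 6 months belong to arrays 31 to 33, and the ranges of the diets overlapped at each age. Over the 3 ages the fitted difference between CR and AL was -0.102 (SE 0.0453, adjusted p = 0.451 in limma), and 0.0237% of all features were called. It was -0.0833 (SE 0.0276, adjusted p = 0.81) when set-adjusted, -0.0713 within the larger set (17 CR and 18 AL mice) and -0.0808 within the smaller set (6 CR and 11 AL mice). By age the differences were -0.147 at 6 months, -0.07 at 16 months and -0.0877 at 24 months, and 16 of 25 CR mice were below the AL mean.

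By sex, Bcas1 averaged 0.272 in 26 adult males and 0.36 in 29 adult females. The fitted difference was -0.0998 (SE 0.0453, adjusted p = 0.984 in limma), in a comparison with 0.0% of all features called, and -0.0745 (SE 0.0275, adjusted p = 0.913) when set-adjusted. Neither the diet nor the sex difference of Bcas1 passed the test over all features. Between 16 and 6 months in CR mice Bcas1 differed by 0.179 (SE 0.0797, adjusted p = 0.711 in limma), and by 0.0454 when set-adjusted, after the low arrays 31 and 32 had been left out. In juveniles its mean was 0.362 ± 0.0516, and no comparison with them passed.

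**Figure D4:**
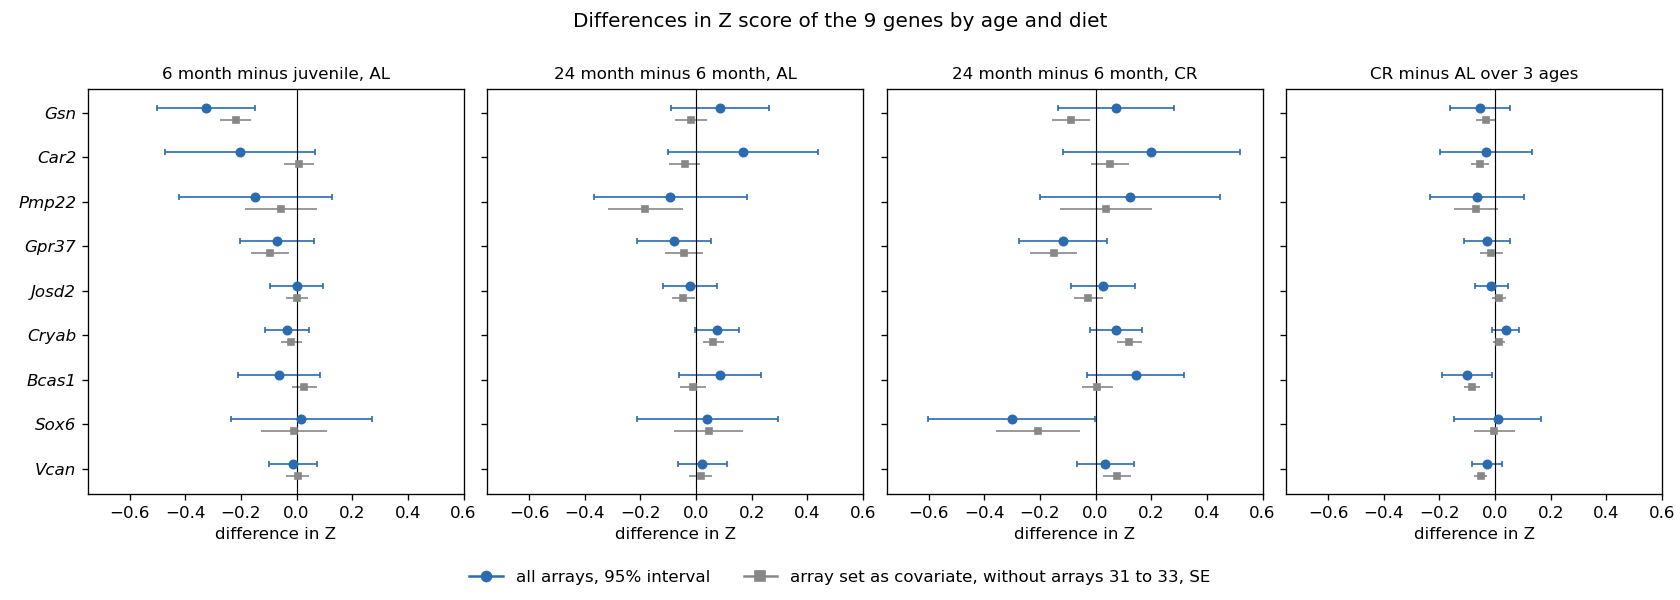
Difference in Z score (x axis) of each gene (y axis) for 6 months against juveniles in AL mice, 24 against 6 months in AL and in CR mice, and CR against AL over 3 ages. Blue points are fits of all arrays with 95% intervals and grey squares are set-adjusted values with SE. The interval of Gsn lies below 0 in the leftmost panel (-0.5 to -0.148), that of Bcas1 in the rightmost (-0.192 to -0.0107), and that of Sox6 only just in CR mice (-0.601 to -0.00117).

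Sox6, a transcription factor that holds progenitors in an immature state, had group means from -2.05 to -1.75. Its lowest, median and highest Z scores were -3.1, -1.875 and -1.58 in juveniles, -2.1, -1.76 and -1.12 in CR and -2.41, -1.955 and -1.4 in AL mice of 6 months, and -2.61, -1.95 and -1.74 in CR and -2.15, -1.93 and -1.64 in AL mice of 24 months. In CR mice the difference between 24 and 6 months was -0.301 (SE 0.15, adjusted p = 0.57 in limma), with 6 of 7 mice of 24 months below the mean of 6 months. It was -0.207 (SE 0.151) when set-adjusted, and -0.328 within the larger set (4 mice of 24 months, 6 of 6 months). Arrays 31 and 32 had Z scores of -1.5 and -1.12 among the CR mice of 6 months. In AL mice the same difference was 0.041 (95% interval -0.213 to 0.295). The older and the younger juveniles differed by -0.279 for Sox6, and by -0.05 (SE 0.16) without the juvenile male at -3.1, and neither value passed the test.

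Versican (Vcan), a chondroitin sulfate proteoglycan that progenitors secrete into the extracellular matrix, varied little. Its medians lay between -0.115 and -0.005 in the 7 groups, with single values from -0.34 to 0.12. The mean was -0.089 ± 0.107 in AL mice of 6 months and -0.077 ± 0.0888 in juveniles (difference -0.012, 95% interval -0.0991 to 0.0751). Over adult life in AL mice the difference between 24 and 6 months was 0.023 (-0.0641 to 0.11). CR and AL differed by -0.0278 (-0.0813 to 0.0257) over the 3 ages, and by -0.0519 (SE 0.0248, adjusted p = 0.81 in limma) when set-adjusted.

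The diet and sex differences of the steps with age were also fitted, and with all arrays no gene had an unadjusted p under 0.05 in any of them. The closest was the male minus female difference of the CR effect for Pmp22, -0.328 (SE 0.168, adjusted p = 0.953 in limma). It was -0.42 (SE 0.16, adjusted p = 1.0 in limma) when set-adjusted, where its unadjusted p was under 0.05. For Cryab it was 0.0938 (SE 0.0482, adjusted p = 0.953 in limma), and 0.0545 (SE 0.0452) when set-adjusted. Of the comparisons of the step from 6 to 24 months, the closest was the CR minus AL difference for Sox6, -0.342 (SE 0.196, adjusted p = 0.999 in limma). It was -0.252 (SE 0.189) when set-adjusted.

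The wider lineage lists were thinly covered. Of a 62-gene oligodendrocyte and myelin list, 9 genes were measured. Only the tetraspanin Cd9 and the junctional adhesion molecule Jam3 were not already members, so this list largely repeats the results above. In each of the 16 comparisons 0 of the 9 features were called, where at most 0.13% of all features were. Their median difference between 6 months and the juvenile stage was -0.069, against -0.003 over all features, and -0.00743 when set-adjusted. Of a 26-gene progenitor list, 7 genes were measured on 9 features, with the members Sox6 and Vcan among them, and 1 feature was called once. This was Id2, an inhibitor of basic helix-loop-helix factors that delays oligodendrocyte differentiation, on feature 12323. It averaged -0.579 ± 0.113 in 25 CR mice and -0.429 ± 0.119 in 30 adult AL mice, with a fitted difference of -0.157 (SE 0.0324, adjusted p = 0.0483 in limma), in a comparison where 0.0237% of all features were called. The call was lost when set-adjusted (-0.111, SE 0.0237, adjusted p = 0.0923), with filter position medians removed (-0.0898, SE 0.023, adjusted p = 0.815), with both (-0.0758, adjusted p = 0.988), and in all but 21 of the 65 fits that left out 1 mouse. It was kept with the array round as a block (-0.158, SE 0.0313, adjusted p = 0.0248 in limma). With that block and without arrays 31 to 33 it was lost (-0.121, SE 0.0258, adjusted p = 0.0954 in limma). The second Id2 feature, 12394, differed by -0.0772 (SE 0.0585, adjusted p = 0.63). The other progenitor genes, Fyn, Ptprz1, Sox11, Sox4, Sox6 and Vcan, were not called in that comparison.

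Correlations across mice were computed over 62 arrays after the mean of each set had been removed, and they are given as a description, since arrays share hybridization noise. The highest pairs were Car2 with Bcas1 (r = 0.524), Gpr37 with Gsn (0.511), Bcas1 with Gsn (0.444), Car2 with Gsn (0.365) and Cryab with Josd2 (0.356). The lowest was Cryab with Bcas1 (-0.362). Differences between the groups of mice were left in these values. With the means of stage, diet and sex fitted out as well, r for the same pairs in this order was 0.525, 0.4, 0.59, 0.394, 0.494 and -0.385. With set means alone removed, the 36 pairs had a median r of 0.0485, against -0.00768 for pairs of every 7th feature. Of the pairs, 5 (13.9%) exceeded 0.3, against 11.9% of those other pairs. Sox6, Vcan and Pmp22 had no pair above 0.3 with another of the 9 genes.

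The features of other genes most like each member were then named, 3 for each. The closest were Sec61g for Gsn (r = 0.653), Agbl5 for Car2 (0.742), Col1a2 on feature 15060 for Pmp22 (0.57), Celf3 for Gpr37 (0.691), Zdhhc3 for Josd2 (0.723), Txndc12 for Cryab (0.691), Smoc1 for Bcas1 (0.856), Paip2 for Sox6 (0.74) and Tbccd1 for Vcan (0.733). Next came Ube2q1 and Zdhhc8 for Gsn, Atxn2l and Rpl9 for Car2, Kcnj12 and Ptk7 for Pmp22, Mdh2 and Ezr for Gpr37, Zfp846 and Rhox6 for Josd2, Trim71 and Rmi1 for Cryab, Efnb3 and Serpinb1a for Bcas1, Lcor and Sbf2 for Sox6, and Eif1ax and Tfpi for Vcan. None of these 27 features belonged to another of the 9 genes. Many had a feature number near that of the member: 13 of the 27 lay within 60 feature numbers, where a median of 1.5% of the named features lie. The filter position of the member was shared by 5 of the 27, where a median of 4.37% of the named features share it. All 3 features nearest to Gsn shared its position, Tbccd1 was 1 feature number from Vcan, and the 3 features of Bcas1 were 5, 27 and 49 numbers away. The part of filter position in these correlations was not tested.

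**Figure D5:**
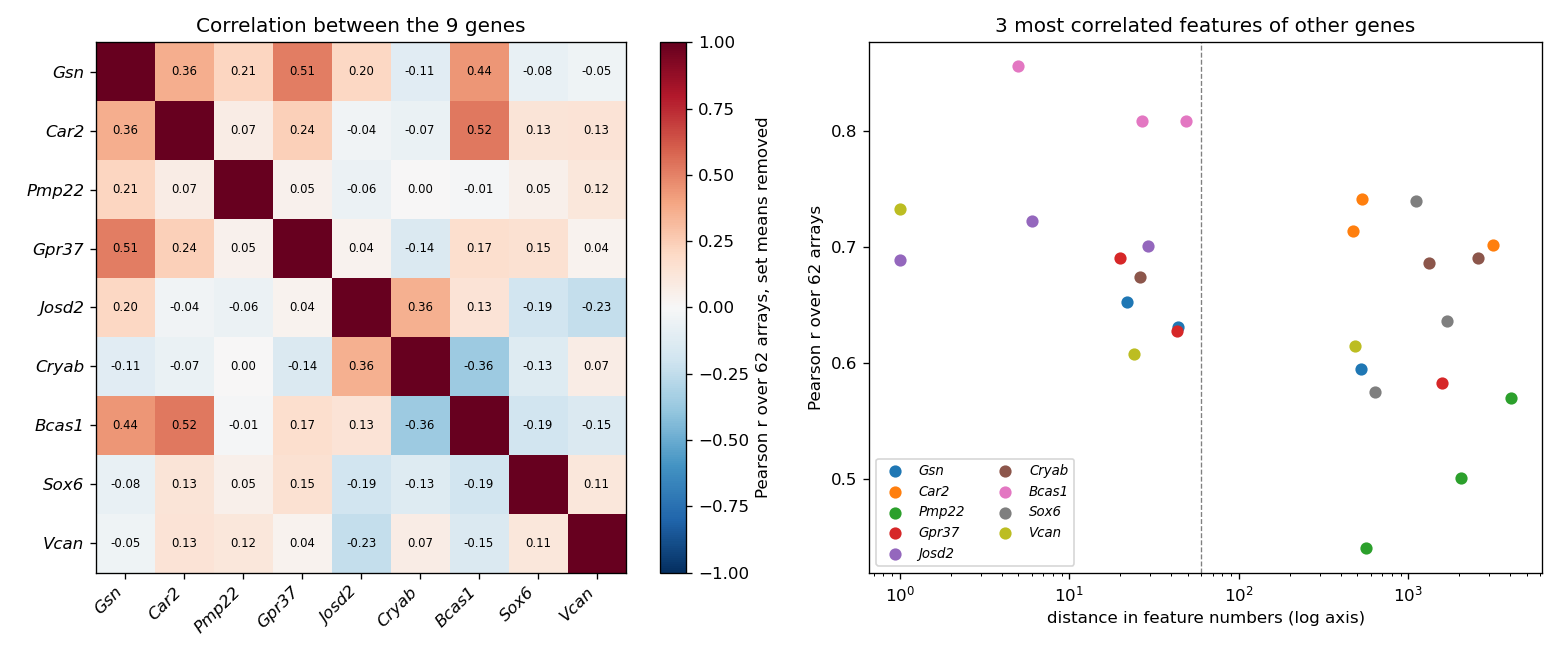
Left, Pearson r between the 9 genes over 62 arrays with set means removed (colour scale from -1 to 1). Right, r of the 3 features of other genes most like each member (y axis) against their distance in feature numbers (log x axis), with the dashed line at 60, left of which 13 of the 27 points lie.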

How the data were processed

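Members and gene lists were chosen with earlier results of these data known. The deposited values are a score: the authors Z-transformed the scanned intensities of each radioactively hybridized filter on its own and gave 2 decimals. The log base and background treatment are not given in the sources used here. Such scores hide any shift shared by most features, and the number of arrays, not a depth, limits the precision. Features were named by the platform annotation, checked against RefSeq. All 65 arrays were fitted with limma 3.58.1 in R 4.3.3 (14 means of stage, diet and sex, sexes weighted equally, no filter), with Benjamini-Hochberg adjustment over 8448 features and a threshold of 0.05. The fit was tested on simulated data. Juveniles were divided at 25 days. Array sets were read from the sign of the first principal component without arrays 31 to 33 (36% of variance, 95.8% of it between sets), and 3870 features (45.8%) differed between sets. Because the sets were defined from these same values, both the 95.8% and the 45.8% are in part fixed by that choice. Named genes were all members, list genes that were called or had an unadjusted p under 0.01, and the 3 features most correlated with each member. Alternatives were the set covariate, leaving out arrays 31 to 33 or array 27 (whose description label differs from its title), array weights and quantile normalization. Others were position centring, features with a mean Z above 0, the selection stated in the methods, and leaving out each mouse. That selection was run without its ANOVA step. Removing position medians together with the set covariate, and fitting the array round as a block, were added after seeing the data.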

Additional observations from a re-analysis of the deposited data

Results flagged for a closer look

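In 70 groups of values (10 features in 7 groups of mice), 12 had a mouse far from the others by Dixon's criterion, where chance flags about 1 in 20 groups, or 3.5 here. Of these, 6 came from array 33, the AL male replicate 3 of 6 months: Car2 at -2.25, Cryab at 0.15, Bcas1 at -0.49, Gsn at -0.76 and Vcan at -0.34 were the lowest of their group, and the feature annotated with Gsn and Mthfd2 was the highest at 0.72. The CR male replicate 1 of 24 months was highest of its group for Cryab (0.67) and lowest for Bcas1 (-0.11). The CR male replicate 2 of 24 months was lowest for Vcan (-0.24), and the AL male replicate 4 of 24 months was lowest for Bcas1 (0.1). The juvenile AL male replicate 5 was lowest for Pmp22 (-1.79) and for Sox6 (-3.1).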

How the results depend on the processing

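The count of members called was 0 in each of the 16 comparisons and stayed 0 under the alternatives, except for AL mice of 6 months against juveniles. There it was 1, always Gsn, with array weights and with centring on 22 filter positions. Without arrays 31 to 33 it was also 1, again Gsn, with position centring plus the set covariate and with the array round as a block. The methods' selection took Gsn too (z-ratio -3.56), by a z-ratio beyond 1.5, a mean above 0 and a t-test p under 0.05. That p was not adjusted over features, and the share of all features selected is not given here. In limma, 2.56% of all features had an unadjusted p under 0.05 in this comparison. All features called in that comparison numbered 11 with the scores as deposited, 24 with array weights (which did not converge), 13 with the round as a block, 20 with it and without arrays 31 to 33, 12 with position centring and 19 with position centring and the set covariate. The Gsn difference was -0.199 (adjusted p = 0.0376) with array weights, -0.304 (adjusted p = 0.000317) and -0.251 (adjusted p = 0.00241) with the position centrings, and -0.223 (adjusted p = 0.0204 in limma) with the round block without arrays 31 to 33. Leaving out 1 mouse at a time, the counts of members called ranged from 0 to 0, and Gsn ranged from -0.37 to -0.22, with adjusted p from 0.0671 to 0.921. The member differences with an unadjusted p under 0.05 did not change sign under these alternatives. Of all 144 member differences, none of them called, 25 had the other sign when set-adjusted. Between 24 and 6 months in AL mice these were Car2 (0.168 with all arrays, -0.0401 set-adjusted), Gsn (0.087, -0.0183) and Bcas1 (0.085, -0.0119). Features with a mean Z above 0 left only Cryab, Bcas1, Gsn and Josd2, so that setting gave no value for the other 5 genes. Averaging the features of a gene was not run, because each gene had 1 feature with a single symbol. The labels carry no replicate numbers, and the 5 rounds were read from the array numbers in the titles, each starting at a juvenile male. As a replicate block the round changed no other count of members called.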
